A study of Sus scrofa with 35 samples.

Results

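A set of 9 genes of glycogen synthesis and breakdown, of 9633 named genes with a measured probe, was followed in back muscle (longissimus dorsi) from castrated male pigs, sampled either in heat stress (HS) or under thermoneutral conditions (TN). They were chosen by name: every non-control probe whose gene name in the scanner files is PYGM, PHKA1, PHKB, PHKG1, UGP2, GYS1, GBE1, PRKAG3 or PPP1R3C, which gave 22 of the 60305 probes on the array. PYGM and PRKAG3 had 3 probes each, PPP1R3C had 3, UGP2 had 6, GYS1 and GBE1 had 2 each, and PHKA1, PHKB and PHKG1 had 1 each. All 22 passed the filter on dim probes, and 21 of them were well above background on all 35 arrays. Each gene is described by its brightest probe, and the others are given beside it.

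The 35 arrays, each with the RNA of 1 muscle, came from Creole pigs, Large White (LW) pigs and their F1 cross. Each breed had 6 TN and 6 HS arrays, except F1, which had 6 TN and 5 HS. On the labels TN is 24 °C and HS is 30 °C, but the growth protocol and the methods of the study put HS at 32 °C, for 5 days in the protocol. Slaughter came earlier for TN than for HS and the pens were different, so that temperature cannot be told apart from pen, age or day of slaughter. The study also reports that the HS pigs ate less in the heat than before it. It had no TN group on the same reduced intake, so feed intake cannot be told apart from temperature either. Pigs of a breed came from a few litters that the labels do not name, and the tests treat them as independent. The share of probes well above background on an array was 58.4% to 75.9%, and all 9 genes that define skeletal muscle on the marker list had a measured probe. In a whole muscle sample, fewer cells of a type and less RNA per cell cannot be told apart.

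Glycogen is the glucose store of muscle. Glycogen phosphorylase (PYGM in muscle) cuts glucose units from its branches, and it is switched on by phosphorylase kinase, an enzyme of alpha (PHKA1), beta (PHKB), gamma (PHKG1) and calmodulin subunits, of which gamma is the catalytic one. For synthesis, UGP2 makes UDP-glucose, GYS1, the glycogen synthase of muscle, adds it to the chain, and GBE1 makes the branch points. PRKAG3 encodes a gamma subunit of the AMP-activated kinase that is typical of fast glycolytic muscle, and in pigs it is known for alleles that alter the glycogen content of meat. PPP1R3C tethers protein phosphatase 1 to glycogen, where the phosphatase activates the synthase.

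The probes are 60-base oligonucleotides, and a level is only what these bases captured. The 2 PYGM probes shown first were designed on the same transcript and overlap, with their longest identical run, 38 bases, in capitals. After an added c in the first probe, its remaining bases match the second as well. The 2 show how far 2 probes of a gene can be the same measurement.
PYGM A_72_P516452: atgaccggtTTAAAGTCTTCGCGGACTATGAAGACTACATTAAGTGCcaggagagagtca
PYGM A_72_P574044: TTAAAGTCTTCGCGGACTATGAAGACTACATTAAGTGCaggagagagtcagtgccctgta
The third PYGM probe and the only PHKG1 probe are printed because they share a run of 14 bases, in capitals, although they are named for different genes. The strand that each of these 2 was designed for was not determined, so neither is known to capture the messenger RNA of its named gene.
PYGM O13134: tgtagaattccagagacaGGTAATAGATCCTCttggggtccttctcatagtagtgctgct
PHKG1 O12536: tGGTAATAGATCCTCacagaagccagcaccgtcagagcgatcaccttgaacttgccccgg
The next 4 are 1 probe each for other genes described below, not always the brightest, and have no capitals.
PHKB O14022: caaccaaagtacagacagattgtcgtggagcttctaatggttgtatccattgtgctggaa
UGP2 A_72_P427819: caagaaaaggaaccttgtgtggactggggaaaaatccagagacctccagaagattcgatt
GYS1 A_72_P442869: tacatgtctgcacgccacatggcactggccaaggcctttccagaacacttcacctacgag
PPP1R3C A_72_P261022: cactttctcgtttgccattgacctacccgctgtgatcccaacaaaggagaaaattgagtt
The PHKA1 probe O11629 is not printed. It shares runs of 53, 49, 31 and 18 bases with 4 probes that carry an accession and no gene symbol in the files.

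The first question was whether these genes differed between HS and TN whatever the breed. Of the 9, 7 were lower in HS and none was higher: PYGM, PHKA1, PHKB, PHKG1, UGP2, GYS1 and GBE1 passed an adjusted p of 0.05 (limma, additive model of breed and temperature, Benjamini-Hochberg over all probes tested). Of all 41517 probes tested, 16.0% passed in either direction and 8.30% passed as lower. The median log2 difference of the 9 genes was -0.41, beside -0.02 over all probes. Both groups of enzymes, those of breakdown and those of synthesis, were among the 7, while the regulators PRKAG3 and PPP1R3C were not. The PHKG1 call rests on its only probe, of undetermined strand. By probe, 15 of 22 were lower, and none was higher. Probes of a gene can share sequence, so a count of probes is not one of independent measurements.

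**Figure D1:**
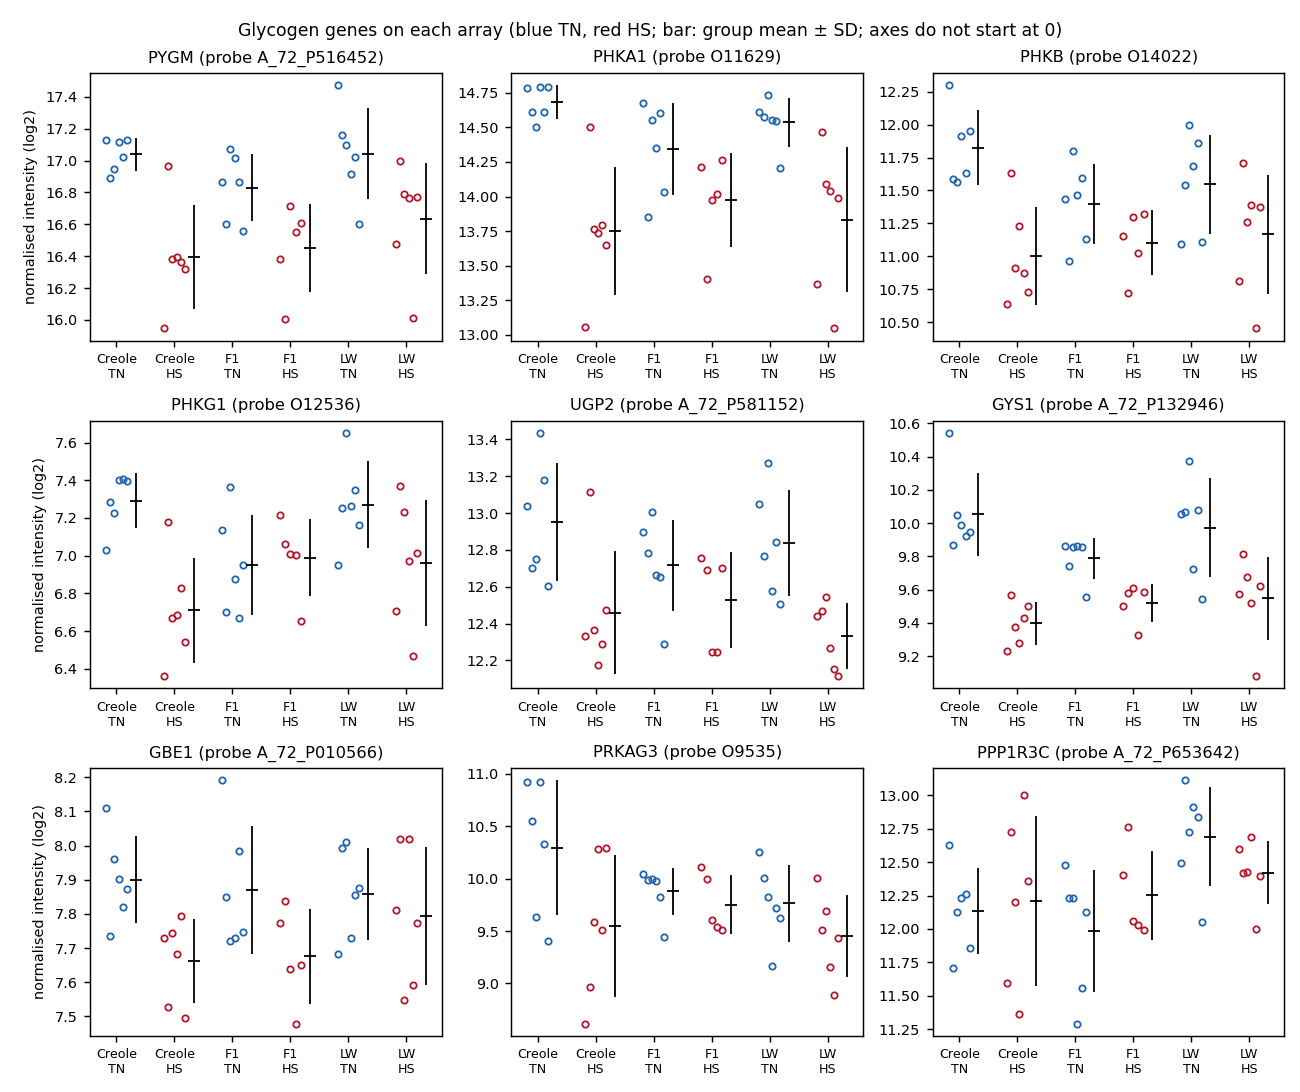
Normalised intensity (log2, y axis of each panel) of the 9 glycogen genes on each of 35 arrays, in the 6 groups of breed and temperature on the x axis. Points are arrays, TN in blue and HS in red, and the black mark with its bar is the group mean ± SD. The Creole HS arrays of GYS1 all lie below the Creole TN arrays, whereas the groups of PPP1R3C overlap in each breed.

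Among the enzymes of breakdown, PYGM was read on the normalised log2 intensity scale, as are all levels here. Its TN arrays ran from 16.89 to 17.13 in Creole (median 17.07), from 16.56 to 17.07 in F1 (median 16.87) and from 16.60 to 17.47 in LW (median 17.06). Its HS arrays ran from 15.95 to 16.97 in Creole (median 16.37) and from 16.01 to 17.00 in LW (median 16.77), and the 5 F1 HS arrays read 16.38, 16.01, 16.71, 16.55 and 16.61. All 17 HS arrays lay below the TN mean of their breed, although HS and TN overlapped in each breed. The difference was -0.48 (SE 0.09, adjusted p = 0.0006, limma), and the PYGM signal fell by 28.3%. The other 2 probes named PYGM were also called. A_72_P574044, which overlaps the first, gave -0.53. O13134, of undetermined strand, gave -0.55 and was far dimmer, with a TN mean of 8.73 and an HS mean of 8.18. A probe without a symbol that the files describe as a glycogen phosphorylase, A_72_P414523, gave -0.13 (adjusted p = 0.29).

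PHKA1, the regulatory alpha subunit of phosphorylase kinase, had the largest difference of the 9. In TN its arrays ran from 14.50 to 14.79 in Creole (median 14.70), from 13.85 to 14.68 in F1 (median 14.45) and from 14.21 to 14.73 in LW (median 14.56). In HS they ran from 13.05 to 14.50 in Creole (median 13.75) and from 13.05 to 14.47 in LW (median 14.01), and the F1 arrays read 14.22, 13.41, 13.97, 14.02 and 14.26. Again every one of the 17 HS arrays was below the TN mean of its breed, and 5 of 6 Creole HS and 5 of 6 LW HS arrays lay below every TN array of their breed. PHKA1 differed by -0.68 (SE 0.12, adjusted p = 0.00037, limma), and its signal fell by 37.4%. The 4 probes that share its bases gave -0.68 to -0.63, all called. A probe described in the files as a phosphorylase kinase alpha subunit, A_72_P092196, gave -0.67 (adjusted p = 0.00094). These 5 probes, and the others without a symbol named here, were looked up after values were seen.

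PHKB, the beta subunit, lay below its breed's TN mean on 16 of 17 HS arrays. TN arrays ran from 11.57 to 12.30 in Creole (median 11.77), from 10.96 to 11.80 in F1 (median 11.45) and from 11.09 to 11.99 in LW (median 11.61). HS arrays ran from 10.64 to 11.63 in Creole (median 10.89) and from 10.45 to 11.71 in LW (median 11.32), and the F1 HS arrays read 11.16, 10.72, 11.30, 11.03 and 11.32. In Creole 5 of 6 HS arrays lay below every TN array, against 1 of 5 in F1 and 2 of 6 in LW. PHKB differed by -0.50 (SE 0.12, adjusted p = 0.004, limma). A second probe described as a phosphorylase kinase beta subunit, A_72_P057056, gave -0.36 (adjusted p = 0.044).

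PHKG1, the catalytic gamma subunit of muscle, was lower by -0.29 (SE 0.09, adjusted p = 0.027, limma), with 12 of 17 HS arrays below the TN mean of their breed. All 6 Creole HS and 5 of 6 LW HS arrays were below, but only 1 of 5 F1 HS arrays was. The mean PHKG1 level was 6.95 ± 0.26 (SD, n = 6) in F1 TN and 6.99 ± 0.20 (SD, n = 5) in F1 HS. All PHKG1 values come from its only probe, whose strand was not determined, so the probe is not known to capture PHKG1 messenger RNA.

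Among the enzymes of synthesis, GYS1 had the smallest adjusted p of the 9 genes. In TN its arrays ran from 9.87 to 10.54 in Creole (median 9.97), from 9.55 to 9.86 in F1 (median 9.86) and from 9.54 to 10.37 in LW (median 10.06). In HS they ran from 9.23 to 9.57 in Creole (median 9.40) and from 9.08 to 9.81 in LW (median 9.60), and the F1 arrays read 9.50, 9.58, 9.61, 9.33 and 9.59. In Creole the 2 groups did not overlap, and all 17 HS arrays lay below the TN mean of their breed. GYS1 differed by -0.46 (SE 0.07, adjusted p = 0.00017, limma), and its signal fell by 27.1%. Its second GYS1 probe differed by -0.43 (adjusted p = 0.0002).

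UGP2, which supplies the UDP-glucose that the synthase uses, was lower on all 6 of its probes, with differences from -0.45 to -0.37, all called. On its brightest probe, TN arrays ran from 12.60 to 13.44 in Creole (median 12.89), from 12.29 to 13.00 in F1 (median 12.72) and from 12.51 to 13.27 in LW (median 12.81). HS arrays ran from 12.18 to 13.11 in Creole (median 12.35) and from 12.12 to 12.54 in LW (median 12.35), and the F1 HS arrays read 12.76, 12.69, 12.25, 12.24 and 12.70. The highest Creole HS array stood well above the other 5, all of which lay below every Creole TN array. UGP2 differed by -0.40 (SE 0.09, adjusted p = 0.0037, limma), and 15 of 17 HS arrays were below the TN mean of their breed.

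GBE1, the branching enzyme, had the smallest called difference, -0.16 (SE 0.05, adjusted p = 0.036, limma), from a TN mean of 7.88 ± 0.14 (SD, n = 18) to an HS mean of 7.71 ± 0.16 (SD, n = 17). Its second probe, O11457, was well above background on 25 of 35 arrays and gave -0.07 (adjusted p = 0.79). On O11457 a single LW TN array read 8.13, against 5.87 for the next of its group, and without it the GBE1 difference on this probe was 0.07, with no test. Within groups the 2 GBE1 probes had r = -0.20 over 35 arrays and 0.07 over the 34 without that array, given as a description. A_72_P231737, described in the files as a branching enzyme, gave -0.06 (adjusted p = 0.40). The GBE1 call was kept in only 9 of 17 other settings: it was lost with median scaling (-0.11, adjusted p = 0.16), the processed signal (adjusted p = 0.072), normexp (adjusted p = 0.084), the mean of all probes (adjusted p = 0.27), spike-in scaling (-0.036, adjusted p = 0.83) and each of 3 covariates. It was also lost when any of 10 single arrays was left out, with adjusted p up to 0.064, and the other 6 calls were kept whichever of the 35 arrays was left out.

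The regulators differed from the enzymes in what could be called. In TN the brightest PRKAG3 probe read 9.98 ± 0.48 (SD, n = 18), and in HS 9.57 ± 0.48 (SD, n = 17). The difference was -0.41 (SE 0.15, adjusted p = 0.066, limma). It did not pass, and leaving out any of 6 single arrays brought it past, with adjusted p down to 0.043. The other 2 PRKAG3 probes gave -0.12 (adjusted p = 0.38) and 0.23 (adjusted p = 0.61). The PPP1R3C mean was 12.27 ± 0.48 for TN (SD, n = 18) and 12.30 ± 0.43 for HS (SD, n = 17), and its difference of 0.01 (95% interval -0.25 to 0.28, adjusted p = 0.96) leaves room for a change of either sign. Its other 2 probes gave -0.06 and -0.11, neither called.

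The strand of a PPP1R3C probe is shown because it bears on what was read. Probe O13753 carries a stretch of 37 bases whose reverse complement lies in A_72_P638375, another probe without a symbol, and 30 of these bases are printed for each.
PPP1R3C O13753: agtgaaatatttagagtagaaaactgtggg
A_72_P638375: cccacagttttctactctaaatatttcact
Within groups the brightest PPP1R3C probe varied with A_72_P638375 (r = 0.97 over 35 arrays) more closely than with O13753 (r = 0.71), which is a description of these arrays. The strand each probe was designed for was not determined, and neither was called for temperature.

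To see whether the breeds responded alike, HS was compared with TN within each breed in a model with 1 mean per group. In Creole 5 of the 9 genes were lower and none higher: PHKA1 by -0.93 (SE 0.20), PHKB by -0.82 (SE 0.19), GYS1 by -0.66 (SE 0.12), PYGM by -0.65 (SE 0.15) and PHKG1 by -0.58 (SE 0.14), with adjusted p between 0.019 and 0.034 (limma). The PHKG1 value is again that of a probe of undetermined strand. Over all probes 1.91% were called in Creole and 0.874% were called lower. None of the 9 was called in F1 or in LW, where 0.00482% of all probes were called in each. At an unadjusted p of 0.05, 2 of 9 genes passed in F1 (8.30% of all probes) and 5 of 9 in LW (16.6% of all probes), all lower. In LW the largest differences were PHKA1 with -0.70 (SE 0.20) and UGP2 with -0.50 (SE 0.16), each with an adjusted p near 0.1. In F1 they were PYGM with -0.38 (SE 0.16) and PHKA1 with -0.37 (SE 0.21).

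The test of the difference itself, a breed by temperature interaction, called none of the 9 genes (limma, adjusted p = 0.96 for each) and 0% of all probes. Without adjustment, PHKG1, on its only probe of undetermined strand, alone of the 9 passed 0.05, as did 3.84% of all probes. The breeds are therefore not shown to differ in the response of these genes. The Creole count rested on single arrays: it was 0 without the first Creole TN array, 1 without the first or the sixth Creole HS array, 2 without Creole HS array 3 or 5 or Creole TN array 6, and 3 without Creole TN array 5. It also fell to 3 with slide as a fixed block and to 0 with array brightness, the leukocyte mean or the fast minus slow fibre mean as a covariate. The Creole differences stayed below 0 in each of those fits for the 5 genes, but their size moved. When each array was left out, PYGM ran from -0.76 to -0.56, PHKA1 from -1.08 to -0.79 and PHKB from -0.95 to -0.73. Over the other settings, slide and covariates included, the ranges were wider. PYGM ran from -0.80 to -0.39, PHKA1 from -1.06 to -0.57 and PHKB from -0.88 to -0.37. Without the sixth LW TN array, PHKA1 and GYS1 passed in LW with -0.77 and -0.51.

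**Figure D2:**
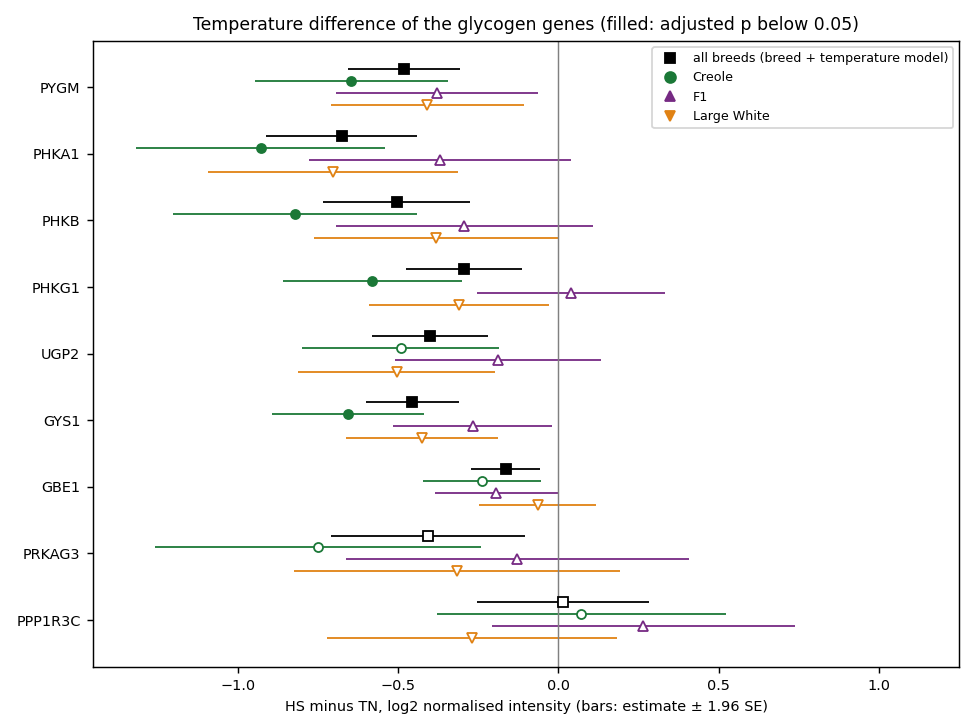
HS minus TN (x axis, log2 normalised intensity) for each of 9 genes (y axis) over all breeds and within Creole, F1 and Large White. Symbols are limma estimates, bars are 95% intervals, and filled symbols have an adjusted p below 0.05. The filled squares of 7 genes lie left of 0, and only Creole has filled symbols among the within-breed estimates.

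The 5 slides of the arrays gave a check within a batch, since slides 1 to 4 each held 4 HS and 4 TN arrays of all breeds. With breed means subtracted, PYGM was lower in HS on all 4 slides, by -0.87 to -0.12. PHKA1 ranged from -1.15 to -0.16, PHKB from -0.80 to -0.01, GYS1 from -0.70 to -0.30, UGP2 from -0.76 to -0.23 and GBE1 from -0.25 to -0.11, all negative on each of the 4 slides. PHKG1 was negative on 3 of 4, with a range of -0.58 to 0.02. The remaining slide held only 1 Creole HS and 2 LW TN arrays and gives no such value. With slide as a fixed or a random block the count of members called over all breeds stayed at 7.

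Markers of cell types and a measure of array brightness moved with temperature beside these genes. The mean of 17 leukocyte genes was 9.49 ± 0.69 (SD, n = 18) in TN, with a range of 7.95 to 10.57, and 10.18 ± 0.42 (SD, n = 17) in HS, with a range of 9.52 to 10.92. It was higher by 0.70 (permutation p = 0.0011, adjusted over 11 measures 0.002, higher on 15 of 17 HS arrays). Of the 17, 9 were called higher and none lower, and 3 of the 20 genes listed had no measured probe. The mean of 12 fast fibre genes was lower by -0.22 (adjusted permutation p = 0.00052, lower on 14 of 17), with 4 of 12 called lower, while that of 9 slow fibre genes differed by -0.01 (adjusted permutation p = 0.88). The mean of 15 connective tissue genes was higher by 0.30 (adjusted permutation p = 0.00052) and that of 8 nerve genes by 0.39 (adjusted permutation p = 0.00052), although the median difference of the 8 was 0.01. For the slow fibre genes the median difference was -0.12. Those of 4 blood genes and 7 endothelium genes were lower by -0.37 and -0.18 (adjusted permutation p = 0.00086 and 0.011), that of the 9 muscle-defining genes was lower by -0.11 (adjusted permutation p = 0.00052), and that of 8 adipocyte genes differed by 0.10 (adjusted permutation p = 0.40). Array brightness, the 75th percentile of the raw intensity, was higher in HS by 0.18 log2 (adjusted permutation p = 0.02).

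With the leukocyte mean of each array as a covariate, 2 of the 9 genes were called for temperature, PHKA1 (-0.41) and GYS1 (-0.27). PYGM was at -0.30 (adjusted p = 0.051), and PHKB fell from a difference of -0.50 to one of -0.18 (adjusted p = 0.29). With array brightness as a covariate 3 were called, PYGM (-0.32), PHKA1 (-0.49) and GYS1 (-0.34). With the fast minus slow fibre mean 5 were called, PHKG1 and GBE1 being lost. In each of these fits the 7 genes kept a negative difference. The covariates moved with temperature themselves, and their part in the results was not tested further. The scaling also moved the balance over all probes: 48.2% of called probes were higher in HS in the main setting, 27.2% after scaling to the 75th percentile and 86.6% after scaling to the spike-in controls. In the last setting 5 genes were still called lower, without PHKG1 (-0.20) and GBE1 (-0.04).

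The rest of the pathway was read from a list of 39 further genes, of which 32 had a measured probe. Of the 32, 8 (25%) were lower in HS and none was higher. Of all probes, 8.30% were called lower and 16.0% in either direction. A negative difference was seen in 24 of 32. The median was -0.12, beside -0.02 over all probes. By the role that the list gives, 3 of 9 breakdown genes were called, 0 of 6 synthesis genes, and 5 of 17 regulators. At an unadjusted p of 0.05 none of the 6 synthesis genes passed either, beside 30.7% of all probes. No test compared the roles, and the members UGP2, GYS1 and GBE1, also enzymes of synthesis, were called.

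EPM2A, which encodes laforin, a phosphatase of glycogen, had the smallest p of the list, with a TN mean of 11.73 ± 0.25 (SD, n = 18) and an HS mean of 11.16 ± 0.25 (SD, n = 17). It differed by -0.57 (SE 0.08, adjusted p = 0.0001, limma), and all 17 HS arrays lay below the TN mean of their breed. CALM2, a calmodulin gene, differed by -0.21 (adjusted p = 0.014). PGM1, phosphoglucomutase, which converts glucose 1-phosphate to glucose 6-phosphate, differed by -0.33 (adjusted p = 0.015). PPP1CC, a catalytic subunit of protein phosphatase 1, differed by -0.17 (adjusted p = 0.018), and GSK3B, a kinase that inhibits glycogen synthase, by -0.26 (adjusted p = 0.021). PPP1R3B, a sister of PPP1R3C that also tethers the phosphatase to glycogen, differed by -0.47 (adjusted p = 0.027). PRKAG1, a gamma subunit of the AMP-activated kinase, was also called (-0.12, adjusted p = 0.031). Other measured probes of PGM1 and GSK3B had the same sign but were not called. PPP1CB (-0.02) and PRKAB2 (-0.40, adjusted p = 0.062, limma) were not called on their brightest probes. Of their other measured probes, all of the same sign, 4 of PPP1CB and 1 of PRKAB2 were called. The count of called genes thus depends on the probe chosen.

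**Figure D3:**
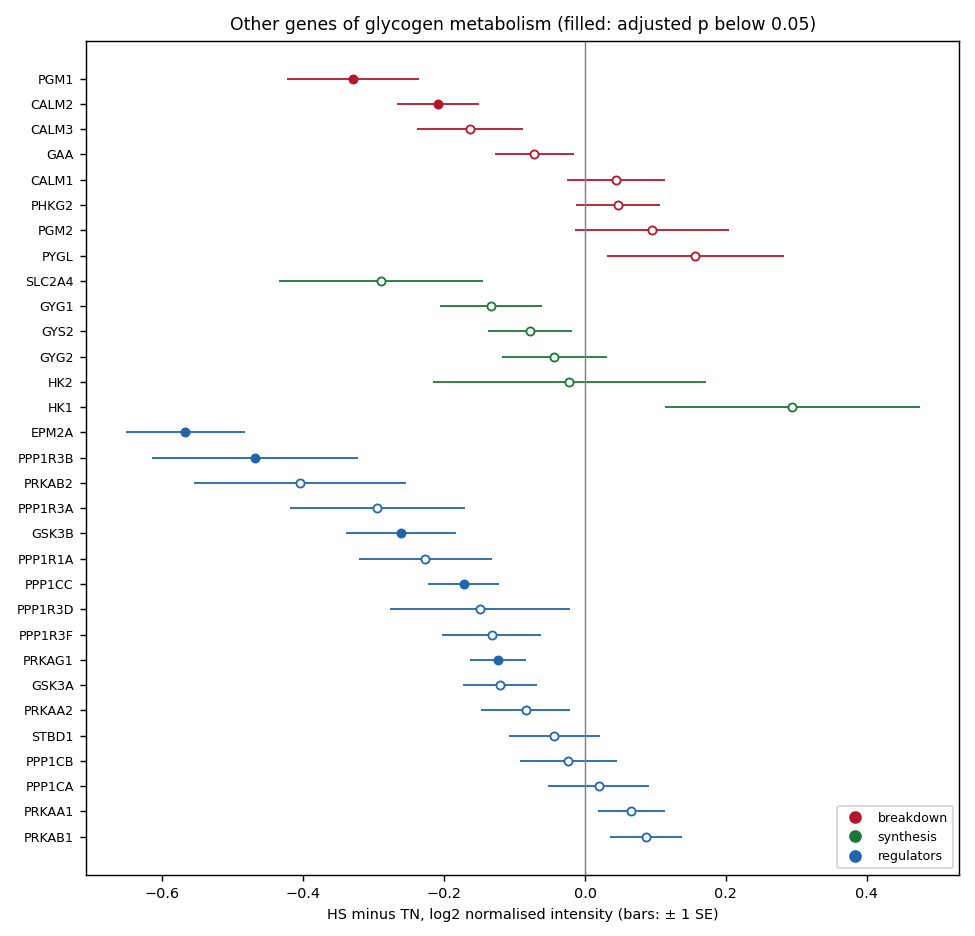
HS minus TN (x axis, log2 normalised intensity) for other genes of glycogen metabolism (y axis), grouped as breakdown, synthesis and regulators. Points are limma estimates from the additive model, bars are ± 1 SE, and filled points have an adjusted p below 0.05. The filled points all lie left of 0 and none belongs to the synthesis group.

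The next question was whether breeds differed whatever the temperature. Between Creole and LW none of the 9 genes was called on its brightest probe (limma), against 3.64% of all probes, and 1 of 9 passed an unadjusted p of 0.05, against 15.4% of all probes. The nearest was PPP1R3C, with a Creole mean of 12.17 ± 0.48 and a LW mean of 12.56 ± 0.33 (SD, n = 12 each), a difference of -0.39 (SE 0.16, adjusted p = 0.23). The 7 enzymes differed by -0.12 to 0.12. None of the 32 other pathway genes was called either, and 5 passed an unadjusted p of 0.05. The 4 with the smallest p were GAA, lysosomal glucosidase (0.19, adjusted p = 0.11), GYG1, the primer glycogenin (0.25, adjusted p = 0.12), and PPP1CB and PPP1CC of protein phosphatase 1 (0.23 and -0.14, adjusted p = 0.14 and 0.23).

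PRKAG3 was the exception by probe. Of its 3 probes, 2 were higher in Creole than in LW, against 1.73% of all probes called higher: A_72_P441803 by 0.59 (SE 0.10, adjusted p = 0.00072, limma) and A_72_P223232 by 1.59 (SE 0.33, adjusted p = 0.0031). The brightest, O9535, differed by 0.31 (SE 0.19, adjusted p = 0.46). The first 2 carry the same transcript name and O9535 carries another. The transcript on which O9535 was designed was not determined. On A_72_P441803 the Creole arrays ran from 6.47 to 7.66 (median 6.78), the F1 arrays from 6.14 to 6.90 (median 6.57) and the LW arrays from 5.94 to 6.54 (median 6.34). Creole stood highest, F1 between and LW lowest, with overlap. On O9535 the same breeds ran from 8.62 to 10.92, 9.44 to 10.11 and 8.89 to 10.25. The 2 probes hardly varied together within groups (r = 0.11 over 35 arrays, a description).

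On A_72_P223232 the arrays fell into 2 separate ranges, 24 of them from 7.15 to 8.48 and 11 from 9.65 to 10.47, with a gap of 1.18 log2 between. In Creole 7 of 12 arrays were in the upper range, in F1 4 of 11, and in LW 0 of 12. By temperature the upper range held 3 of 6 Creole TN, 4 of 6 Creole HS, 1 of 6 F1 TN and 3 of 5 F1 HS arrays. The F1 HS arrays read 9.97, 9.76, 7.93, 7.81 and 10.20. All 12 Creole arrays lay above every LW array, the 5 Creole arrays of the lower range included, which read 8.16 to 8.48 against 7.15 to 8.15 in LW. The difference between HS and TN in F1 on this probe was 0.96 (SE 0.47, adjusted p = 0.61). The gap was 35.4% of the whole range of this probe, and among the other 21 member probes the largest inner gap was 20.4% of the range, on PYGM.

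**Figure D4:**
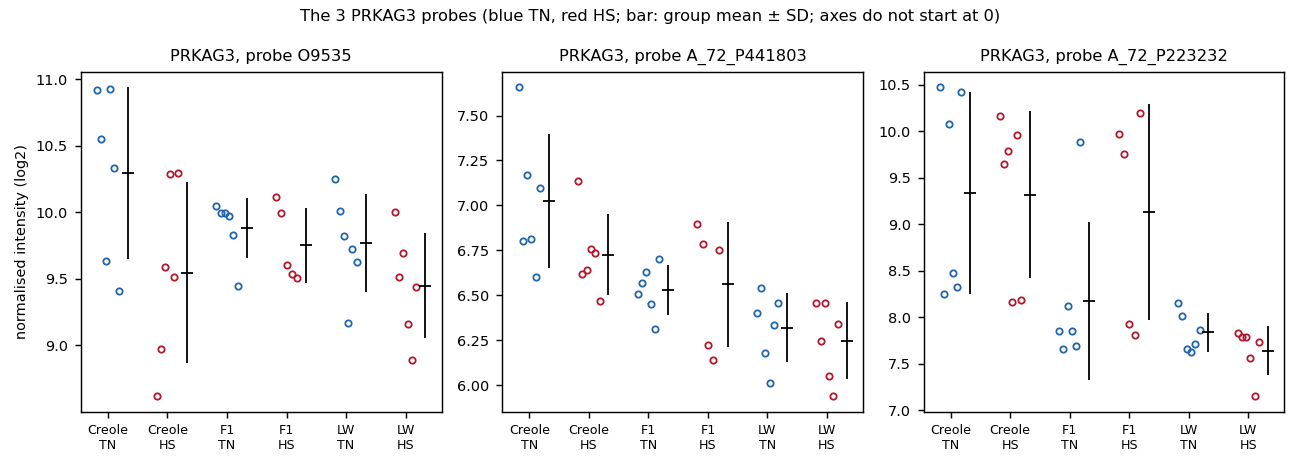
Normalised intensity (log2, y axis) of the 3 PRKAG3 probes on each of 35 arrays in the 6 groups of breed and temperature (x axis). Points are arrays, TN in blue and HS in red, and black marks with bars are the group mean ± SD. On A_72_P223232, Creole and F1 arrays form 2 ranges and all 12 LW arrays lie in the lower one.

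The F1 cross was compared with each parent and with their midpoint. None of the 9 genes was called in F1 minus LW (limma), in F1 minus Creole or against the midpoint, where 0.525%, 0.477% and 0.246% of all probes were called. At an unadjusted p of 0.05 the counts were 1, 0 and 0 of 9, against 10.5%, 8.88% and 7.35% of all probes. PPP1R3C was the 1 gene that passed unadjusted, with -0.45 in F1 minus LW (SE 0.17, adjusted p = 0.28). On A_72_P441803, PRKAG3 in F1 differed from LW by 0.25 (SE 0.11, adjusted p = 0.38) and from Creole by -0.34 (SE 0.11, adjusted p = 0.19), so neither was called. These contrasts share arrays with each other and with Creole minus LW.

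The last question was how the genes varied among pigs of 1 group. After the group means were subtracted, 14 of the 36 pairs of genes were correlated over the 35 arrays (Pearson r, permutation within groups, Benjamini-Hochberg over 36 pairs at 0.05), and 11 by Spearman rho. The strongest pair was PYGM with PHKA1, the phosphorylase and a subunit of its kinase: r = 0.87 (permutation p = 1e-05, the smallest 100000 resamples can give, adjusted 0.00018) and rho = 0.75 (permutation p = 2e-05, adjusted 0.00036). Without the 2 arrays farthest from the PYGM median, r was 0.80. PHKA1 and PHKB, 2 subunits of 1 enzyme, had r = 0.83 (permutation p = 1e-05, adjusted 0.00018) and rho = 0.73 (permutation p = 1e-05, adjusted 0.00036), and r = 0.80 without the 2 extreme arrays. PYGM and PHKB had r = 0.72 (permutation p = 3e-05, adjusted 0.00036) and rho = 0.66 (permutation p = 9e-05, adjusted 0.0011), and r = 0.61 without them.

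Of the 14 pairs, 13 lay among the 7 genes lower in HS, and the other was GYS1 with PPP1R3C (r = 0.43, adjusted permutation p = 0.02). That pair did not pass by rho (0.36, adjusted permutation p = 0.10) or without the 2 extreme arrays of GYS1 (r = 0.30, adjusted permutation p = 0.18). In the main setting no pair with PRKAG3 passed, with r from 0.03 to 0.39. GBE1 passed with no gene there, with r of -0.03 to 0.40. UGP2 with PRKAG3 passed without the 2 extreme arrays of UGP2 (r = 0.46, adjusted permutation p = 0.017). With 75th percentile scaling, GYS1 passed with PRKAG3 (r = 0.41, adjusted permutation p = 0.048). In that setting it also passed with GBE1 (r = 0.50) and with PPP1R3C (r = 0.44), each with an adjusted permutation p of 0.014. All values of an array come from 1 hybridisation of 1 muscle, so quality and composition of the sample are shared by both genes of a pair.

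**Figure D5:**
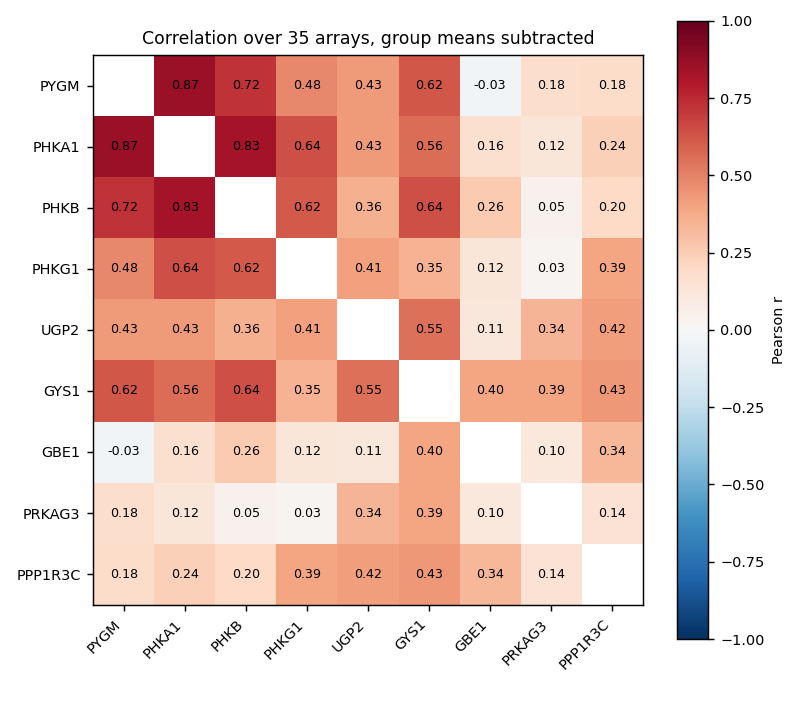
Pearson r (colour and number) for each pair of the 9 genes over 35 arrays after the mean of each group was subtracted. PYGM, PHKA1 and PHKB form the block of highest values, 0.72 to 0.87, and the PRKAG3 values run from 0.03 to 0.39.

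Over 9622 named genes with a value on every array, those most like each member within groups were found by Pearson r, given as a description. For PYGM they were DYRK1B (0.90) and the glycolytic genes PFKM (0.89) and PGAM2 (0.89). For PHKA1 they were PFKM (0.88), PGK1 (0.88) and GLO1 (0.87). For PHKB they were SUCLG1 (0.92), PGGHG (0.88) and ATP2A1 (0.88), and for PHKG1 TMEM182 (0.76), NCOA1 (0.70) and AKAP6 (0.70). UGP2 was nearest to TARDBP (0.74), CYP27A1 (0.71) and CS (0.71). GYS1 was nearest to MORC4 (0.86), DHPS (0.84) and STUB1 (0.84), and GBE1 to EIF4B (0.66), PGM3 (0.63) and EIF3K (0.61). For the regulators these were NFATC2 (0.67), ALOX12B (0.66) and CACYBP (0.66) with PRKAG3, and DDIT3 (0.74), BVES (0.71) and IVNS1ABP (0.69) with PPP1R3C. No other member was among the 3 nearest genes of any member.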

How the data were processed

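Muscle RNA was labelled by the authors with Cy3 and read on Agilent arrays of pig transcripts in 1 colour, with Feature Extraction 10.10.1.1 as the spot software. The deposited scanner files hold linear intensity values, and the deposited value table holds log2 values that the authors quantile-normalised and filtered. It was used as an alternative. Here the median pixel intensity of non-control spots was quantile-normalised with no background subtracted and put on the log2 scale. Outlier flags removed 105 spots, and replicate spots were averaged. A probe was kept (41517 of 60305) if, in 1 group or more, 75% of arrays or more read it well above background. No spot was saturated. Genome positions of the probes were not used here.

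Differences were tested with limma 3.58.1 in R 4.3.3 on all 35 arrays, with Benjamini-Hochberg adjustment at 0.05 over all kept probes: an additive model of breed and temperature, and a model with 1 mean per group for values within a breed and the interaction. The labels lack the random terms of the study's model (pen, slaughter day, parents), so these could not be fitted. The fit was tested on simulated data. Array measures and correlations were tested with 100000 two-sided permutations, within breed and within group respectively. With arrays, their number limits the precision.

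The brightest kept probe, by mean over all arrays, stands for a gene. Of the pathway list, all genes were counted, and the 6 with the smallest p for temperature and the 4 for Creole minus Large White were named. PRKAG1, and the probes found by description or shared bases, were added after their values were seen. Individual values of 1 counted pathway gene are not reported here. Members and lists were chosen with earlier results of these data known. Alternatives covered scaling, background, filters, probe choice, naming, slide, covariates and leaving out each array. Replicate numbers follow the order of deposition.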

Additional observations from a re-analysis of the deposited data

Results flagged for a closer look

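In 12 of 132 combinations of a probe and a group (22 probes, 6 groups), 1 array stood apart from the rest of its group by a gap that is large against the group's whole range. Chance gives about 1 in 20 such cases, or 6.6 here, and probes of a gene are not independent. For GBE1 on probe O11457 the first LW TN array was highest, at 8.13 against 5.87 for the next, a gap of 0.893 of the range. For GYS1 the first Creole TN array was highest on both probes, at 10.54 against 10.05 (a gap of 0.73) and at 8.51 against 8.12 (0.726). On the second GYS1 probe, LW HS array 5 was lowest, at 7.22 against 7.65 (0.683). For PHKA1 the sixth LW TN array was lowest, at 14.21 against 14.54 (0.646). For UGP2 the second Creole HS array was highest on 4 of 6 probes, with gaps of 0.68, 0.758, 0.773 and 0.628, and on probe A_72_P427819 the sixth F1 TN array was lowest, at 9.13 against 9.51 (0.639). For PRKAG3 the sixth F1 TN array was lowest on probe O9535, at 9.44 against 9.83 (0.64), and highest on probe A_72_P223232, at 9.89 against 8.12 (0.796). What sets these arrays apart was not tested.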

How the results depend on the processing

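No paired analysis was possible because the replicate numbers follow the order of deposition and the labels pair no pigs. The count of members called for temperature was 7, between 5 and 7 under 15 of the 18 other settings, and 6 to 8 when each array was left out. It was 2 with naming by accession, which finds only 3 members, 3 with array brightness as a covariate and 2 with the leukocyte mean. For temperature in Creole the count was 3 with spike-in scaling, 1 with naming by accession, 3 with slide as a fixed block, 0 with brightness, 0 with the leukocyte mean and 0 with the fast minus slow fibre mean, and 0 to 6 when each array was left out. For F1 it was 1 with array weights (PYGM), for Large White 1 with array weights (GYS1) and 0 to 2 when each array was left out. For Creole minus Large White it was 1 with the mean of all probes of a gene and 1 with naming by accession, both PRKAG3. Spike-in scaling moved the median of all probes for temperature in Large White from -0.01 to 0.21. The cause of these shifts was not tested, beyond the smaller number of members.

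On their brightest probes the 7 called genes kept their sign for temperature under all settings. GBE1 turned to 0.070 on its probe O11457 without the highest array, and PRKAG3 to 0.23 on A_72_P223232, which is also the probe found by accession. PPP1R3C, never called, turned to -0.024 with 75th percentile scaling, -0.064 with the processed signal, -0.0034 with normexp, -0.049 with the mean of all probes, -0.020 with the fibre covariate, -0.056 and -0.11 on its other probes, and ranged from -0.039 to 0.068 when each array was left out. For Creole minus Large White, enzymes near 0 turned sign without being called. PYGM turned to 0.0084 with the mean of all probes and 0.28 on O13134. PHKA1 turned to -0.012 with median scaling, -0.039 with spike-in scaling, and -0.0081, -0.062 and -0.040 with the brightness, leukocyte and fibre covariates, and ranged from -0.044 to 0.11 when each array was left out. PHKB turned to -0.019 with spike-in scaling, -0.027 with array weights, and -0.058 and -0.048 with the leukocyte and fibre covariates, and ranged from -0.0038 to 0.11. On TN arrays alone PHKG1 was 0.021, GYS1 0.079 and GBE1 0.042, and GYS1 ranged from -0.092 to 2.95e-05 when each array was left out. The other 4 counts (F1 against each parent and the midpoint, and the interaction) stayed at 0 under all settings. Of the 36 correlated pairs tested, 18 passed with 75th percentile scaling and 10 without the 2 extreme arrays, against 14.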
